A study of Danio rerio with 12 samples.

Results

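Microglia of mafba mutants were compared with microglia of mafbb mutants, the 2 single-mutant groups of a zebrafish series, in 6 of its 12 tubes. All embryos were at 3 dpf (days post fertilisation) and of the strain Tg(mpeg1:DsRedx), in which the mpeg1 promoter makes macrophages and microglia red. The groups were the mafba mutant, the mafbb mutant, fish labelled DMut, a name the sources do not spell out, and siblings whose alleles the sources do not give, with 3 tubes each. A tube held 3 red cells picked by hand from dissociated brains of about 10 pooled embryos, and its poly(A) RNA was amplified by Smart-seq2, a full-length cDNA method. The sources used here do not give the mutant alleles, or whether 1 pool of brains or several served a genotype, and p-values therefore reflect the tube-to-tube spread alone, which may be technical. The values are raw read counts per gene. Among 35117 gene IDs, 9519 passed edgeR's filterByExpr and were tested with all 12 tubes in the fit. That filter keeps genes with enough counts in at least 3 of the 12 tubes, of whatever genotype. Separately, the 1764 genes with 10 or more counts in each of the 6 mafba and mafbb tubes were tested in those 6 tubes, so that no value was a missed transcript. Levels are given as CPM (counts per 1000000 counts of the library, on library sizes scaled by TMM over the 9519 genes), and log2 fold changes are mafba minus mafbb with their standard errors (SE). A gene was called at a Benjamini-Hochberg adjusted p under 0.05 in edgeR's quasi-likelihood test.

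Microglia are the resident macrophages of the brain. In the embryo they derive from yolk-sac macrophages, enter the brain early and engulf dying neurons, whose remains they digest in lysosomes acidified by the V-ATPase proton pump. The mutated genes, mafba and mafbb, encode transcription factors of the basic leucine zipper family.

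The mafba tubes held more detected genes than the mafbb tubes. Total counts were 17689266, 12603769 and 15408465 in mafba replicates 1 to 3 and 11072464, 12283921 and 16266247 in mafbb replicates 1 to 3, within the 10014888 to 17689266 of the whole series. Genes with at least 1 count numbered 7038, 10521 and 8153 in mafba and 6141, 6028 and 5100 in mafbb, which did not overlap, and stayed apart after each tube was thinned to 9982659 gene counts. Spike-in RNA took 0.452, 0.0946 and 0.203% of all counts in mafba tubes and 0.662, 0.7 and 0.798% in mafbb tubes, so that each spike-in count came with 220.0, 1056 and 492 gene counts in mafba and 150.2, 142 and 124 in mafbb. The sources used here do not give the amount of spike-in added. Total counts overlapped (exact two-sided permutation p = 0.4, adjusted p = 0.762). For genes detected, genes detected after thinning and the spike-in share the same exact permutation test gave p = 0.1, which is the lowest a design of 3 against 3 can give, and an adjusted p of 0.4 over the 40 properties compared. Their part in the differences between genes below was not tested, and in these tubes fewer cells in a given state and less RNA per cell cannot be told apart. Over the 1764 genes, mafba tubes correlated with each other at a mean Pearson r of 0.79 (log2 CPM), mafbb tubes with each other at 0.656, and mafba with mafbb tubes at 0.707, a description across genes, which are not independent replicates. Tubes of the 2 genotypes thus resembled each other at least as closely as the mafbb tubes resembled each other.

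**Figure D1:**
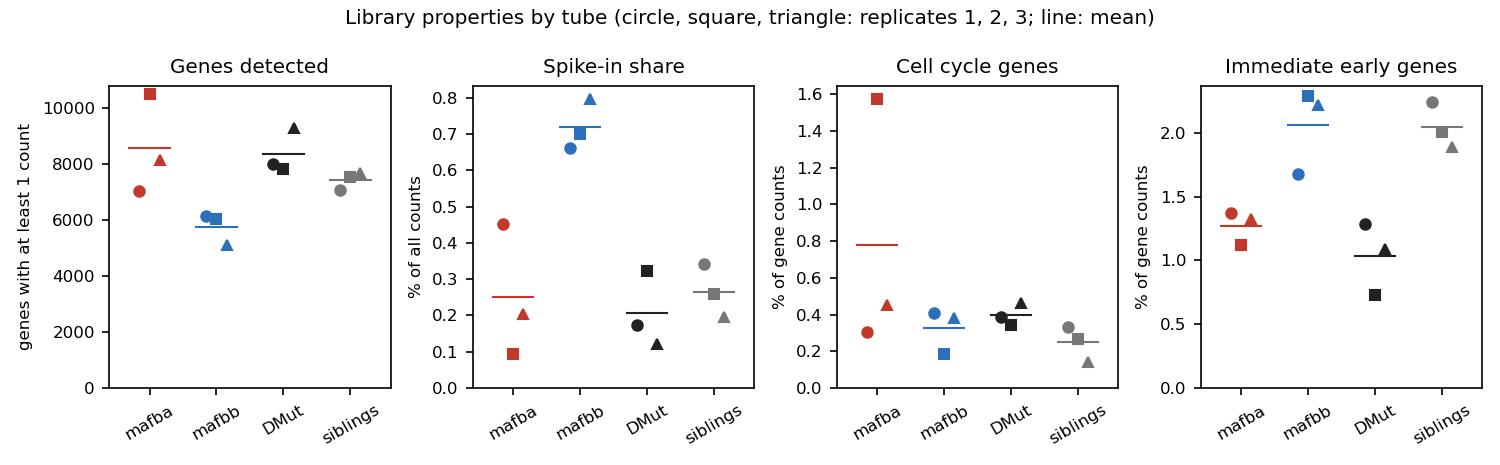
Each panel plots 1 library property (vertical axis, in the unit named there) for the 3 tubes of each genotype, as a circle, a square and a triangle for replicates 1, 2 and 3, with the mean as a line. All mafba tubes lie above all mafbb tubes in genes detected and below them in spike-in share and in the share of immediate early genes, while in the cell cycle share mafba replicate 2, at 1.57%, stands above every other tube.

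The cells carried the RNA of microglia in both genotypes. Of 35 gene IDs on the microglia marker list, 22 had counts in all 6 tubes and 7 in none (GPR34, tmem119a, tmem119b, P2RY13, apoea, MRC1 and 1 of the IDs with the symbol SALL1). Of 42 pan-myeloid IDs, 32 had counts in all 6 tubes and only tyrobp had none. P2RY12, a purinergic receptor that marks microglia, had a count in every tube but mafbb replicate 3. Of all gene IDs, 61.0% had no count in any of the 6 tubes. That share was larger for 5 marker lists of other cells. No count was found for 14 of 18 lymphoid, 14 of 17 erythroid and 19 of 29 endothelial IDs. The same held for 10 of 11 oligodendrocyte and 18 of 25 epidermal and metaphocyte IDs. The other 3 lists had a smaller share. They had no count for 15 of 26 radial glial (57.7%), 22 of 47 neuronal (46.8%) and 13 of 28 neutrophil IDs (46.4%). Few as its counted IDs were, the epidermal and metaphocyte list took 0.0714, 0.0166 and 0.243% of gene counts in mafba tubes. In mafbb tubes it took 0.0375, 0.0258 and 0.00685%, and in DMut 0.196, 0.256 and 0.289%. In mafba replicate 3 cldni stood at 1184 CPM, krt18b at 955 CPM and krt8 at 398 CPM. The epidermal and metaphocyte list does not separate epidermal cells from metaphocytes, which are macrophage-like cells of the skin. The radial glial list took 0.29, 0.821 and 0.296% of gene counts in mafba tubes and 0.322, 0.19 and 0.48% in mafbb tubes. Its member GLUL, the glutamine synthetase that macrophages also express, stood at 2559, 9203 and 2642 CPM in mafba and 2718, 1479 and 2242 CPM in mafbb. Other members were counted as well, and in mafbb replicate 3 ptgdsb.1 stood at 1504 CPM and GJA1 at 376 CPM. ptgdsb.1 was at 0, 10.6 and 0 CPM in mafba tubes and at 0.587 and 0.521 CPM in mafbb replicates 1 and 2. The neuronal list took 0.123, 0.333 and 0.0824% of gene counts in mafba tubes and 0.107, 0.0784 and 0.158% in mafbb tubes, which overlapped. Its member tubb2b stood at 505, 3624 and 808 CPM in mafba and 564, 650 and 1347 CPM in mafbb. UCHL1 stood at 517 CPM in mafba replicate 1, and the STMN1 gene ENSDARG00000033655 at 135 CPM in mafbb replicate 1. The neutrophil list took 0.333, 0.318 and 0.393% in mafba tubes and 0.472, 0.512 and 0.753% in mafbb tubes, which did not overlap (exact permutation p = 0.1, adjusted p = 0.4). Its most counted member was mcl1a, a cell survival gene that is not particular to neutrophils, at 1927, 2371 and 1958 CPM in mafba and 2232, 3535 and 5150 CPM in mafbb, which overlapped. The neutrophil genes lyz, npsn and MMP9 were among the 13 IDs without a count in any of the 6 tubes. Another 7 of the 28 IDs had counts in all 6 tubes, among them mcl1a, srgn, nccrp1, NCF1 and CSF3R. mmp25b had 0, 72 and 767 counts in mafba tubes and 0 in every mafbb tube.

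Of the mutated genes, mafbb was almost not counted in any genotype. mafbb (ENSDARG00000070542) had 0, 0 and 13 counts in mafba tubes, 0, 0 and 0 in mafbb tubes, 0, 0 and 17 in DMut and 0, 0 and 5 in siblings, and was too low to test. These counts cannot check the mafbb label.

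Among the 9519 genes, 4 passed the test, all higher in mafba (0.042% of genes tested), and 0 passed lower in mafba (0.0%). With TMMwsp scaling, which differs in its handling of zeros, 3 passed higher and 2 lower. At an unadjusted p under 0.05 edgeR gave 1454 genes higher (15.3%) and 176 lower (1.85%), and limma voom 1223 and 101. DESeq2, run on 16088 genes without this filter, gave 1867 and 172. At an adjusted p under 0.05 limma voom called 231 higher and 8 lower and DESeq2 1379 and 131, beside the 4 and 0 of edgeR. All mafba tubes lay above all mafbb tubes in 973 genes (10.2%) and below them in 197 (2.07%), and the log2 fold change was above 0 in 5697 genes (59.8%) and below 0 in 3655 (38.4%), with a median of 0.47. That median rested on single tubes and on the scaling: it was 0.02 without mafba replicate 2, 0.98 without mafbb replicate 1, 0.89 without mafbb replicate 2, 0.13 without mafba replicate 2 and mafbb replicate 3 (52.3% above 0) and 0.08 with TMMwsp scaling. Of the genes tested, 2274 had 0 counts in all mafbb tubes and 368 in all mafba tubes, and the median SE was 3.20 on the log2 scale, at a biological coefficient of variation of 2.00. The number of genes detected and these counts move together, and their relation was not tested.

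The 4 called genes were well covered in every mafba tube and had no count in any mafbb tube. SEPTIN8 (ENSDARG00000032606), a septin that builds membrane-associated filaments, stood at 84.9, 70.2 and 207 CPM in mafba tubes and 0 in each mafbb tube, beside 260.1, 3.77 and 108 CPM in the DMut tubes and 157, 129 and 119 CPM in the sibling tubes. si:ch211-288g17.3 (ENSDARG00000070959), known only by a clone name, stood at 72.9, 590.0 and 129.7 CPM in mafba tubes and 0 in each mafbb tube, with 125, 62.2 and 17.9 CPM in siblings. Both were thus at 0 in mafbb where siblings had counts in every tube. MCM2 (ENSDARG00000102798), a subunit of the helicase that opens DNA for replication, stood at 171, 42.1 and 228 CPM in mafba tubes and 0 in each mafbb tube. In DMut it was at 104, 232 and 290.1 CPM, and in siblings at 1.49, 0 and 0 CPM, so that siblings were near 0 as the mafbb tubes were. ARPC1A (ENSDARG00000008383), a subunit of the Arp2/3 complex that nucleates branched actin, stood at 39.3, 130.4 and 80.2 CPM in mafba tubes and 0 in each mafbb tube, with 50.3, 177 and 65.8 CPM in siblings.

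With the counts of the 3 mafba tubes summed over their summed library sizes, and against a floor of 3 counts over the 3 mafbb tubes, 0.0703 CPM, SEPTIN8 was at least 1732-fold higher in mafba (adjusted p = 0.000184), si:ch211-288g17.3 at least 3123-fold (adjusted p = 0.000184), MCM2 at least 2249-fold (adjusted p = 0.000891) and ARPC1A at least 1072-fold (adjusted p = 0.0311). These bounds cover counting error only, since reads without molecular identifiers are not independent molecules. None of the 4 was called when the 6 tubes were fitted alone (adjusted p = 0.204 to 0.352). ARPC1A also lost its call without mafba replicate 2, without mafba replicate 3, without mafba replicate 2 and mafbb replicate 3 together, with TMMwsp scaling, with library size alone and with a filter of CPM above 10 in 3 tubes. si:ch211-288g17.3 also lost it without mafba replicate 2, alone or together with mafbb replicate 3.

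**Figure D2:**
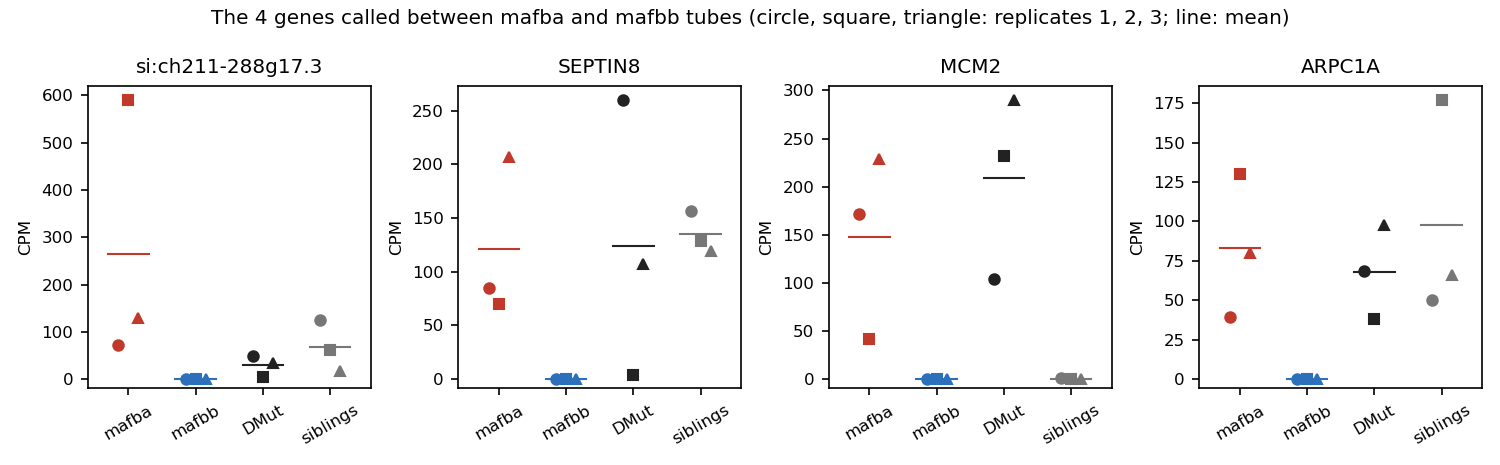
Each panel plots the level of 1 gene (vertical axis, CPM, from 0) in the 3 tubes of each genotype, with a circle, a square and a triangle for replicates 1, 2 and 3 and the mean as a line. The 4 called genes lie at 0 in all 3 mafbb tubes, while MCM2 is also near 0 in siblings.

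The 5 named genes next in order on the higher side were also at 0 in all mafbb tubes, and did not pass. ARCN1, the delta subunit of the COPI vesicle coat, stood at 159.7, 72.5 and 85.6 CPM in mafba tubes (adjusted p = 0.0535). PTPN11, the phosphatase SHP2 of growth factor signalling, stood at 22.6, 90.5 and 65 CPM (adjusted p = 0.0699), and irf2a, an interferon regulatory factor, at 69.9, 119 and 83.5 CPM (adjusted p = 0.0711). ubap2b, of the ubiquitin-associated protein family, stood at 65.6, 57.8 and 111 CPM and TPRG1 at 90.6, 43.2 and 117 CPM in mafba tubes. All of these but TPRG1, which had no count in sibling replicate 1, had counts in every sibling tube.

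On the lower side, the gene nearest to a call was RASGEF1B, an exchange factor for Ras-family GTPases. It stood at 215, 315 and 401 CPM in mafba tubes and 499, 746 and 1938 CPM in mafbb tubes, without overlap (log2 fold change -1.77 ± 0.41, adjusted p = 0.0797). adgrg1, an adhesion receptor of microglia, had 0 counts in all mafba tubes and 0, 2.98 and 27.2 CPM in mafbb tubes (adjusted p = 0.115). Siblings held adgrg1 at 92, 153 and 67.2 CPM and DMut tubes at 57.5, 265 and 99.6 CPM, all above every tube of either single mutant. hamp, the gene of the iron hormone hepcidin, had 0 counts in mafba tubes and 0, 15.7 and 236 CPM in mafbb tubes, so its value rested mostly on mafbb replicate 3 (adjusted p = 0.285).

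Complete separation of detection ran mostly 1 way, as did the number of genes detected (mean 8571 in mafba and 5756 in mafbb tubes). Their relation was not tested. Of all 35117 gene IDs, 335 had 10 or more counts in all mafba tubes and 0 in all mafbb tubes. Of these, 122 had at least 1 count in every sibling tube and 39 had 0 in all sibling tubes. The reverse pattern held for 6 genes: POP7, SLC7A6, PDGFA, TADA1, UBR3 and ENSDARG00000107210. SLC7A6, an amino acid transporter, had 738, 828 and 371 counts in mafbb tubes and 0 in every mafba tube. PDGFA, a platelet-derived growth factor, had 602, 542 and 18 counts in mafbb tubes and 0 in every mafba tube. None of the 6 had a count in every sibling tube. With at least 1 count in place of 10 the numbers were 578 and 51, while 2510 genes had counts in all 6 tubes and 21425 in none.

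Among the 1764 genes with 10 or more counts in all 6 tubes, 0 passed the test in either direction (0.0% each), and the smallest adjusted p was 0.728. These genes held 81.9, 81.1 and 82.4% of gene counts in mafba tubes and 83.4, 84 and 86.4% in mafbb tubes, so they cover most of the RNA measured. At an unadjusted p under 0.05 there were 63 higher (3.57%) and 53 lower (3.0%) by the same test, and DESeq2 and limma voom also called 0 genes in each direction. All mafba tubes lay above all mafbb tubes in 108 genes (6.12%) and below them in 117 (6.63%). Log2 fold changes were above 0 in 819 genes (46.4%) and below 0 in 945 (53.6%), with a median of -0.06 and a median SE of 0.70. TMM scaling over these same genes sets their fold changes near a balance, and the choice of genes leaves out all that were at 0 in a tube, so this split cannot be read against that of the 9519. Scaled to the spike-ins, the median became 1.78, with 710 genes higher and 0 lower at an unadjusted p under 0.05, and with library size alone it was -0.22. Directions below are relative to the median gene.

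**Figure D3:**
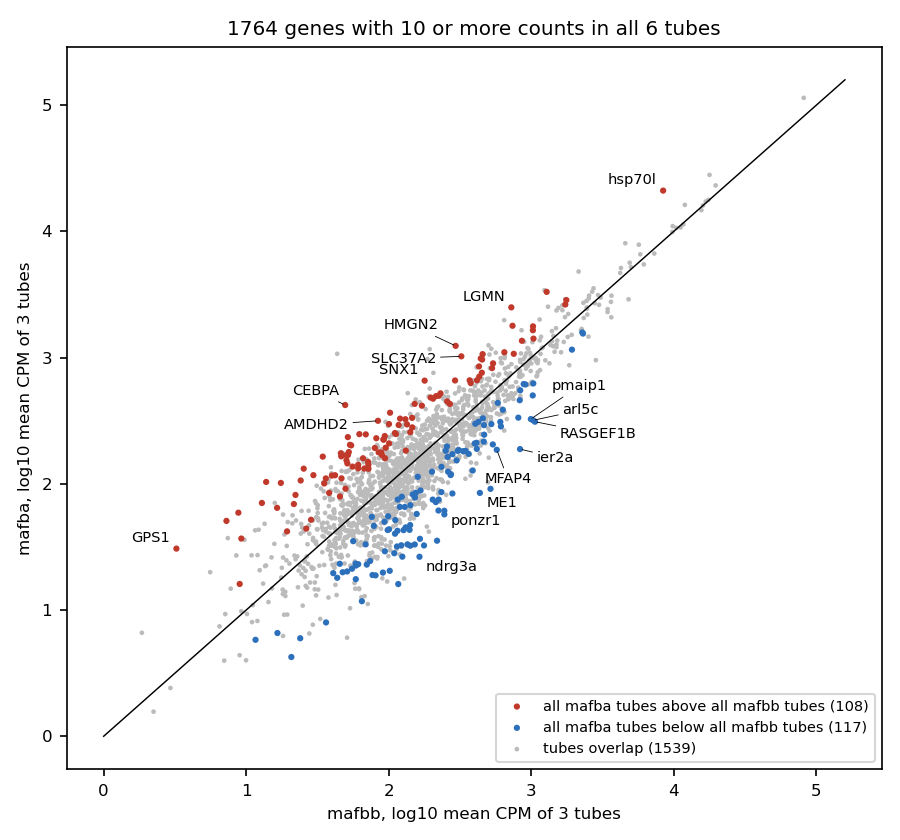
Each point is 1 of the 1764 genes, with its mean level in mafba tubes (vertical axis, log10 CPM) against that in mafbb tubes (horizontal axis, log10 CPM); the line marks equal levels. Points lie along the line on both sides, with 108 red genes whose mafba tubes all lie above the mafbb tubes and 117 blue genes whose mafba tubes all lie below, and the names mark the 8 genes with the smallest p in each direction.

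Of the 12 most abundant genes, 11 overlapped between the genotypes. ENSDARG00000080337, which has no symbol, led at 111047, 111273 and 119785 CPM in mafba tubes and 64538, 116233 and 63479 CPM in mafbb tubes. actb2, a cytoplasmic actin, stood at 19360, 27182 and 22738 CPM in mafba and 24600, 19598 and 14684 CPM in mafbb (log2 fold change 0.22 ± 0.38, 95% interval -0.61 to 1.04). MT-CO1, a mitochondrially encoded subunit of cytochrome c oxidase, stood at 16645, 15282 and 19752 CPM in mafba and 24262, 16790 and 9137 CPM in mafbb (0.01 ± 0.44, 95% interval -0.94 to 0.97). The tubes of both genes overlapped. apoeb, the apolipoprotein E gene that marks zebrafish microglia, stood at 4282, 40525 and 8485 CPM in mafba and 21202, 23674 and 7537 CPM in mafbb (-0.06 ± 0.70, 95% interval -1.59 to 1.46). Its spread within mafba, where replicate 2 was the highest of the 6 tubes and replicate 1 the lowest, exceeded the distance between the group means.

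The 1 gene of the 12 whose groups did not overlap was hsp70l, a heat-inducible chaperone gene. It stood at 29867, 13366 and 19819 CPM in mafba tubes and 10330, 6934 and 7957 CPM in mafbb tubes (log2 fold change 1.35 ± 0.42, adjusted p = 0.728). The related genes hsp70.1 and hsp70.3 did overlap, with log2 fold changes of 0.01 ± 0.42 and 0.41 ± 0.42. Reads of such near-identical copies may have been split between them by the counting.

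Of the 8 genes with the smallest p on the higher side none passed: every gene named from this fit had an adjusted p of 0.728 or more. SNX1, a sorting nexin of the retromer that recycles endosomal cargo, stood at 690.2, 712 and 567 CPM in mafba tubes and 103, 132 and 301 CPM in mafbb tubes (log2 fold change 1.97 ± 0.47, adjusted p = 0.728). LGMN, the lysosomal protease legumain, stood at 1074, 4228 and 2191 CPM in mafba and 725, 664 and 782 CPM in mafbb (1.78 ± 0.45), with the mafbb tubes close together and below all sibling tubes (2153, 1900 and 2879 CPM). SLC37A2, a phosphate-linked sugar transporter needed in zebrafish microglia to shrink phagosomes, stood at 886, 1474 and 707 CPM in mafba and 209.9, 441 and 318 CPM in mafbb (1.67 ± 0.44), again with every sibling tube (1066, 766 and 1023 CPM) above every mafbb tube. CEBPA, a transcription factor of the myeloid lineage, stood at 475, 244 and 542 CPM in mafba and 30.7, 107 and 10.8 CPM in mafbb (3.05 ± 0.82), and at 365, 255 and 407 CPM in siblings. For LGMN, SLC37A2 and CEBPA the mafba tubes overlapped the siblings, and every mafbb tube lay below every sibling tube. The DMut tubes did not share 1 side. They held LGMN at 308, 1268 and 1164 CPM, SLC37A2 at 125, 135 and 130 CPM and CEBPA at 443, 1240 and 1841 CPM.

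The other higher genes of this order were HMGN2, AMDHD2, hsp70l and GPS1. HMGN2, a nucleosome-binding protein, stood at 542, 2704 and 467 CPM in mafba and 264, 379.5 and 241 CPM in mafbb (2.03 ± 0.62), where mafba replicate 2, the tube with the largest cell cycle share, gave the highest value. AMDHD2, a deacetylase of amino sugar breakdown, stood at 318, 232 and 396 CPM in mafba and 123, 40.5 and 88.3 CPM in mafbb (1.93 ± 0.60). GPS1, a subunit of the COP9 signalosome, was low, at 63.4, 9.04 and 19.5 CPM in mafba and 2.27, 5.65 and 1.79 CPM in mafbb, beside 37.2, 38.9 and 36.3 CPM in siblings.

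On the lower side the smallest p belonged to arl5c, an Arf-like GTPase of membrane traffic. It stood at 233, 461 and 261 CPM in mafba tubes and 965, 997 and 1131 CPM in mafbb tubes (log2 fold change -1.68 ± 0.39, adjusted p = 0.728). pmaip1, the pro-apoptotic BH3-only gene known as Noxa, stood at 474, 221 and 281 CPM in mafba and 967, 974 and 1036 CPM in mafbb (-1.57 ± 0.42) and at 621, 874 and 519 CPM in siblings. The 3 mafbb tubes lay close together, and the sibling tubes fell between the 2 mutants. The MFAP4 gene ENSDARG00000088745, 1 of 6 IDs with the symbol of this zebrafish macrophage marker, stood at 203, 158 and 197 CPM in mafba and 701, 741 and 275 CPM in mafbb (-1.65 ± 0.53). The other IDs with this symbol overlapped between the groups, among them ENSDARG00000090783, the most abundant, at 1262, 1476 and 1656 CPM in mafba and 2024, 1006 and 4520 CPM in mafbb. ME1, the cytosolic malic enzyme, stood at 132, 93.8 and 28.3 CPM in mafba and 355, 169 and 782 CPM in mafbb (-2.25 ± 0.70). ponzr1 and ndrg3a had log2 fold changes of -1.96 ± 0.60 and -2.59 ± 0.83, and RASGEF1B, described above, of -1.67 ± 0.48.

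**Figure D4:**
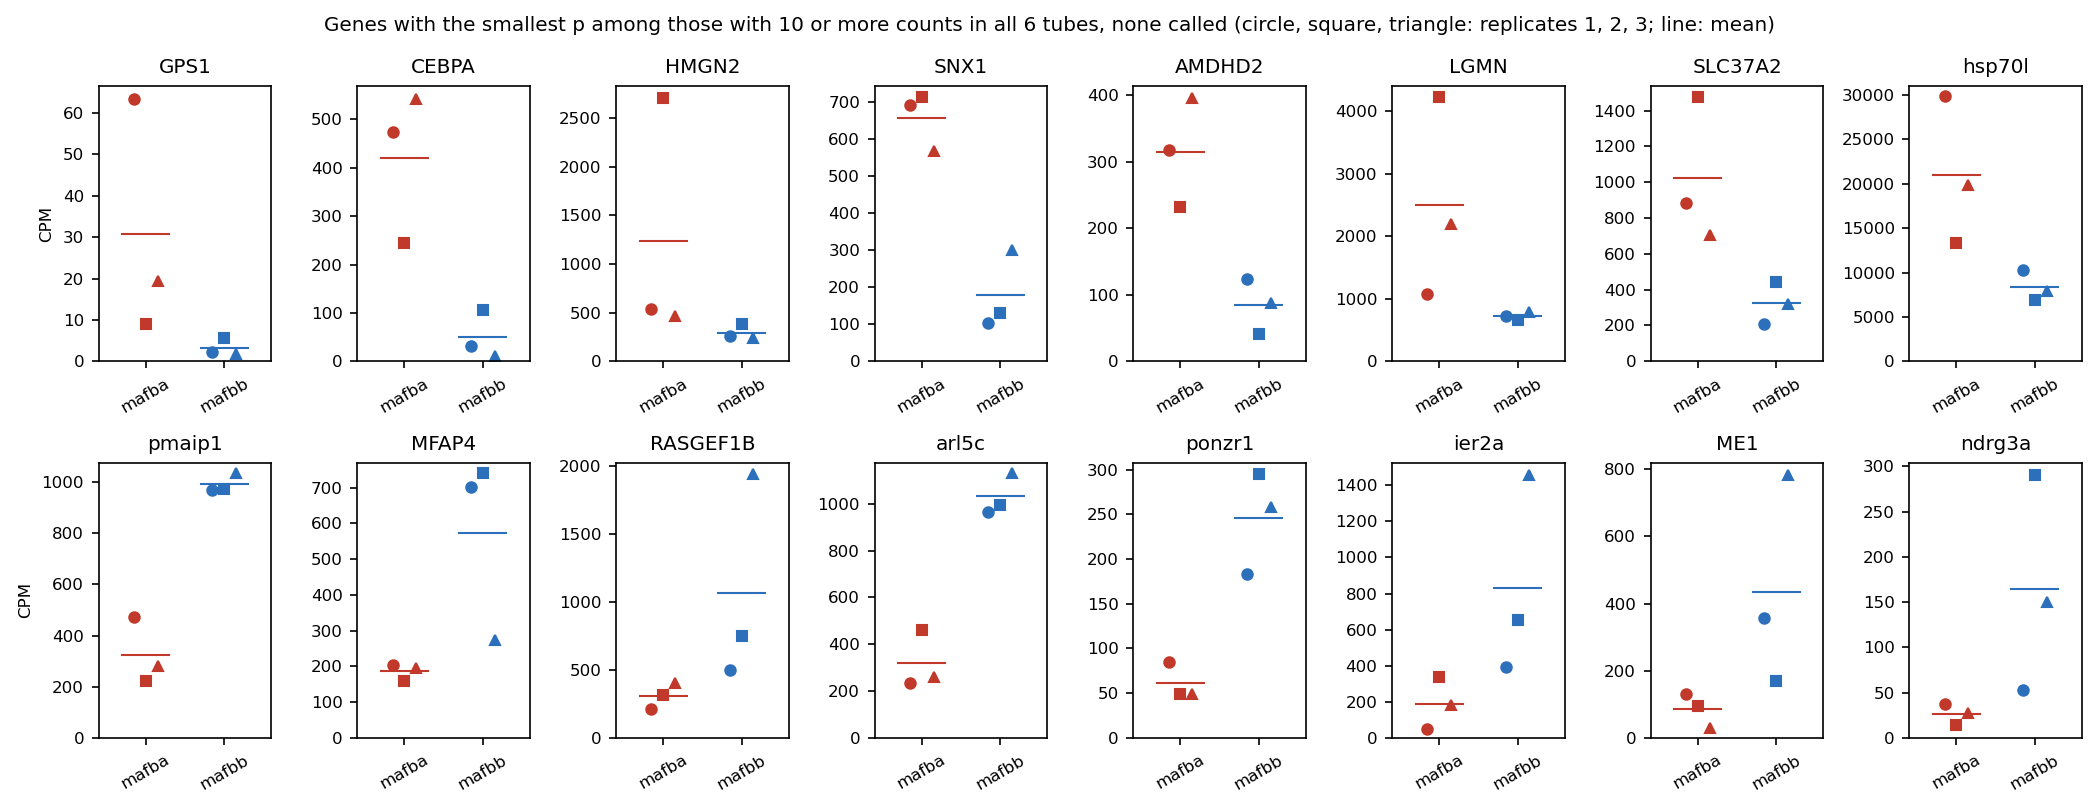
Each panel plots 1 gene's level (vertical axis, CPM, from 0) in the mafba and mafbb tubes, with a circle, a square and a triangle for replicates 1, 2 and 3 and the mean as a line. The upper row holds the 8 genes with the smallest p that are higher in mafba and the lower row the 8 that are lower; none overlaps between the groups and none passed the test.

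Genes were then grouped by role, and in the fit of 1764 genes 0 members of any list passed the test in either direction. In the fit of 9519 genes, MCM2 of the cell cycle list and ARPC1A of the actin list passed, and no other member of the 30 lists. The groups are therefore described by how many of their members with 10 or more counts in all 6 tubes lay on each side of 0, beside 46.4% above 0 over all 1764 genes. The lists were chosen with earlier results of these data known, so their shares beside those of all genes are a description and not a test. Medians were also taken without mafba replicate 2 and mafbb replicate 3, the tubes with the most and the fewest genes detected. With scaling to the spike-ins the median of each list with at least 5 such genes was above 0, between 1.23 and 3.51, where that of all 1764 genes was 1.78.

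Members of the microglia list mostly lay above 0. Of the 35 microglia IDs 18 had enough counts, 14 above and 4 below 0 (median log2 fold change 0.57), and 5 did not overlap between groups, all higher in mafba (27.8% of 18, beside 6.12% of all genes). lgals9l1, a galectin, stood at 3903, 3544 and 2494 CPM in mafba tubes and 2021, 789 and 1033 CPM in mafbb tubes (1.36 ± 0.44). ENTPD1, the ectonucleotidase CD39, stood at 761, 484 and 731 CPM in mafba and 231, 374 and 270.2 CPM in mafbb (1.2 ± 0.43). slco2b1, an organic anion transporter, stood at 296, 213 and 163 CPM in mafba and 68.9, 148 and 59.7 CPM in mafbb (1.28 ± 0.62), and SLC37A2 and CEBPA complete the 5. Beside siblings the 5 did not all follow 1 pattern. For SLC37A2 and CEBPA every mafbb tube lay below every sibling tube, as given above. lgals9l1 had 24087, 10604 and 17869 raw counts in mafbb tubes and 9203, 8075 and 18112 in siblings, which overlapped. ENTPD1 had 2753, 5024 and 4674 raw counts in mafbb tubes and 3538, 3518 and 5885 in siblings, which also overlapped. Both genes overlapped in CPM as well. slco2b1 had 821, 1990 and 1032 raw counts in mafbb tubes and 3805, 1948 and 5988 in siblings. Its raw counts overlapped, but in CPM every mafbb tube lay below every sibling tube. The 2 most abundant markers lay at or under 0, apoeb as given above and the chemokine gene ccl34b.1 at -0.14 ± 0.43, with 2921, 9888 and 7192 CPM in mafba and 8030, 6641 and 7195 CPM in mafbb. The list as a whole took 2.2, 6.51 and 2.7% of gene counts in mafba tubes and 4.4, 4.29 and 2.53% in mafbb tubes, which overlapped. It took 5.12, 7.12 and 6.07% in siblings and 0.441, 0.77 and 0.878% in DMut. The 5 genes without overlap did not all share this fall in DMut. There lgals9l1 had 16251, 19247 and 49976 raw counts, and CEBPA lay above every sibling tube. ENTPD1 had 2071, 2641 and 3434 raw counts in DMut and slco2b1 0, 0 and 40, and SLC37A2 was low, as given above. Without the 2 tubes the list stood at 10 above and 8 below 0 with a median of 0.13; with 1 tube left out the median ran from 0.28 (without mafba replicate 2) to 0.91 (without mafbb replicate 1).

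The pan-myeloid list had 19 above and 9 below 0 among 28 of 42 IDs (median 0.32, with 0.07 without mafbb replicate 3, 0.18 without mafba replicate 1 and 0.49 without mafbb replicate 2). CORO1A, the actin-binding coronin of leukocytes, stood at 2236, 1463 and 1657 CPM in mafba tubes and 1059, 755 and 399.6 CPM in mafbb tubes (1.25 ± 0.46). LYN, a Src-family kinase, stood at 129.8, 74.5 and 106 CPM in mafba and 1.85, 31.4 and 8.15 CPM in mafbb (2.91 ± 1.06). The MPEG1 gene ENSDARG00000055290, 1 of 3 IDs with that symbol, stood at 2672, 2214 and 3006 CPM in mafba and 1304, 1839 and 2051 CPM in mafbb (0.65 ± 0.34), without overlap. NCF4, a cytosolic subunit of the phagocyte NADPH oxidase, ran the other way, at 28.8, 12.3 and 15.3 CPM in mafba and 62.5, 122 and 57.8 CPM in mafbb (-2.09 ± 0.87). SPI1 (ENSDARG00000000767), a transcription factor, also lay lower in every mafba tube, at 60.1, 381 and 450 CPM in mafba and 526, 556 and 491 CPM in mafbb. So did the MFAP4 gene ENSDARG00000088745, given above. Of the 28, 3 lay higher without overlap and 3 lower (10.7% each, beside 6.12% and 6.63% of all genes).

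Regulators of macrophage differentiation and self-renewal had 9 above and 5 below 0 among 14 of 53 IDs. Their median of 0.30 turned to -0.09 without mafba replicate 3, to -0.05 without mafbb replicate 3 and to -0.01 without mafba replicate 1. MEF2C, a MADS-box transcription factor, stood at 39.2, 23.1 and 90.1 CPM in mafba tubes and 4.11, 16.3 and 1.39 CPM in mafbb tubes (2.76 ± 1.1), and siblings had 1.35, 0 and 0 CPM. NR4A1, an orphan nuclear receptor that is also an immediate early gene, stood at 405, 244 and 278 CPM in mafba and 499, 678 and 642 CPM in mafbb (-0.93 ± 0.42). CEBPB, a CCAAT-binding factor of activated macrophages, was the most abundant member, at 1587, 3500 and 3204 CPM in mafba and 3998, 4133 and 2725 CPM in mafbb (-0.41 ± 0.40), and overlapped.

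Receptors and bridging genes of engulfment were few, with 7 of 39 complement C1q and engulfment IDs counted in all 6 tubes, 6 of them above 0 (median 0.30, which turned to -0.10 without mafba replicate 1). havcr1, a receptor for phosphatidylserine on dying cells, stood at 2110, 2315 and 2685 CPM in mafba tubes and 2873, 1025 and 1060 CPM in mafbb tubes (0.49 ± 0.46). SLC7A7, the amino acid transporter that zebrafish microglia need, stood at 709, 2366 and 924 CPM in mafba and 1023, 640.4 and 1014 CPM in mafbb (0.58 ± 0.46). Both overlapped. ITGAV, the integrin alpha V chain, was the 1 member below 0, at 37.2, 115 and 50.3 CPM in mafba and 220.5, 267 and 51.7 CPM in mafbb (-1.50 ± 0.78).

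Most genes of the digestive compartment lay above 0. Of 71 IDs of cathepsins and other lysosomal hydrolases 37 had enough counts, 27 above and 10 below 0 (median 0.47), and the 6 without overlap were all higher in mafba (16.2% of 37, beside 6.12% of all genes). Without the 2 tubes the numbers were again 27 above and 10 below 0, with a median of 0.57. The list as a whole took 3.36, 5.29 and 3.59% of gene counts in mafba tubes and 2.92, 2.66 and 5.09% in mafbb tubes. These shares overlapped (exact permutation p = 0.5, adjusted p = 0.8). CTSC, the protease-activating cathepsin C, stood at 723, 1445 and 782 CPM in mafba tubes and 265, 364 and 697 CPM in mafbb tubes (1.22 ± 0.43). SCPEP1, a serine carboxypeptidase, stood at 1938, 2088 and 1273 CPM in mafba and 1040, 955 and 1087 CPM in mafbb (0.80 ± 0.35). PSAP, the precursor of the saposins that help to break down sphingolipids, stood at 4809, 10553 and 8782 CPM in mafba and 3981, 4545 and 5163 CPM in mafbb (0.84 ± 0.37). CTSC and SCPEP1 did not overlap and PSAP did. CTSB, cathepsin B, was abundant and overlapped, with 2795, 9273 and 3294 CPM in mafba and 4810, 2513 and 5438 CPM in mafbb (0.28 ± 0.47).

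V-ATPase subunits had 14 above and 1 below 0 among 15 of 27 IDs (median 0.51), and 13 and 2 without the 2 tubes (median 0.54). The list took 0.965, 0.956 and 0.859% of gene counts in mafba tubes and 0.67, 0.641 and 0.951% in mafbb tubes. These shares overlapped (exact permutation p = 0.2, adjusted p = 0.533). ATP6AP2, an accessory subunit also called the prorenin receptor, stood at 882, 999 and 671 CPM in mafba tubes and 186, 503 and 599 CPM in mafbb tubes (1.05 ± 0.44). ATP6V0C, the proteolipid of the membrane ring, stood at 1694, 1288 and 1955 CPM in mafba and 1153, 911 and 1013 CPM in mafbb (0.70 ± 0.36), and ATP6V1H, a regulatory subunit of the peripheral part, at 599.6, 737 and 549 CPM in mafba and 427, 341 and 359 CPM in mafbb (0.75 ± 0.39). These 3 subunits did not overlap, while ATP6V1A, the catalytic subunit, did, at 0.73 ± 0.48. Rab GTPases, which direct endosome and phagosome traffic, had 10 above and 3 below 0 among 13 of 70 IDs (median 0.39). RAB5A of early endosomes (171, 131 and 176 CPM in mafba, 107, 92.6 and 82.5 CPM in mafbb) and RAB7A of late endosomes (77.4, 127 and 69.7 CPM in mafba, 52.2, 33.7 and 63.2 CPM in mafbb) did not overlap. They made up 15.4% of the 13, beside 6.12% of all genes. RAB11A of recycling endosomes lay lowest, at -2.76 ± 1.13.

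Enzymes of glycolysis, the pentose phosphate route and the TCA cycle had 26 above and 9 below 0 among 35 of 82 IDs (median 0.45, and 0.43 without the 2 tubes). PKM, pyruvate kinase, stood at 1104, 960.2 and 1241 CPM in mafba tubes and 664, 456 and 821 CPM in mafbb tubes (0.82 ± 0.36). DLST, the succinyltransferase of the oxoglutarate dehydrogenase complex, stood at 202, 158 and 397 CPM in mafba and 112, 109 and 110.1 CPM in mafbb (1.22 ± 0.57). Both did not overlap, whereas the glyceraldehyde phosphate dehydrogenase gene GAPDHS, the most abundant member, did (0.10 ± 0.37). Of the 35, 5 lay higher without overlap (14.3%, beside 6.12% of all genes). ME1, given above, was the 1 member without overlap on the lower side (2.86%, beside 6.63% of all genes). The median stayed above 0 with each tube left out, and was lowest, at 0.22, without mafba replicate 3. The list took 1.89, 2.58 and 2.11% of gene counts in mafba tubes and 2.03, 1.35 and 2.28% in mafbb tubes, which overlapped.

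Immediate early genes, which are transcribed within minutes of a stimulus and also after tissue dissociation, lay mostly below 0. Of 60 IDs 29 had enough counts, 6 above and 23 below 0 (median -0.44, and -0.55 without the 2 tubes). The list took 1.37, 1.12 and 1.33% of gene counts in mafba tubes and 1.68, 2.29 and 2.22% in mafbb tubes, beside 1.29, 0.729 and 1.09% in DMut and 2.24, 2.01 and 1.89% in siblings, so that mafbb tubes lay near siblings and mafba tubes below both (exact permutation p = 0.1 between the mutants, adjusted p = 0.4). GADD45B (ENSDARG00000027744, 1 of 2 IDs with the symbol), a stress-response gene, stood at 184, 123 and 75.4 CPM in mafba and 432, 351 and 381 CPM in mafbb (-1.58 ± 0.54). JUNB, an AP-1 transcription factor, stood at 399.9, 559.8 and 543 CPM in mafba and 857, 1260 and 952 CPM in mafbb (-1.02 ± 0.38). ier2a, a nuclear regulator induced by growth factors, stood at 48.2, 337 and 179.9 CPM in mafba and 393, 651 and 1456 CPM in mafbb (-2.08 ± 0.64). All 3 lay lower in every mafba tube. The 5 members without overlap were all lower in mafba (17.2% of 29, beside 6.63% of all genes).

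Nuclear genes of the respiratory chain and ATP synthase had 20 above and 60 below 0 among 80 of 93 IDs (median -0.34, and -0.35 without the 2 tubes). ATP5PO, a stalk subunit of ATP synthase, stood at 320.0, 497 and 186 CPM in mafba tubes and 541, 626 and 1265 CPM in mafbb tubes (-1.21 ± 0.46). NDUFV1, a core subunit of complex I, stood at 277, 206 and 164 CPM in mafba and 588, 357 and 447 CPM in mafbb (-1.09 ± 0.48), and ndufc2, an accessory subunit, at 42.3, 112 and 60.7 CPM in mafba and 166, 188 and 289 CPM in mafbb (-1.55 ± 0.61). None of these 3 overlapped. Of the 80, 10 lay lower without overlap (12.5%, beside 6.63% of all genes) and 1 higher (1.25%, beside 6.12%). The list took 1.68, 1.99 and 1.62% of gene counts in mafba tubes and 1.97, 2.23 and 3.32% in mafbb tubes, which overlapped. The 13 mitochondrially encoded genes had 5 above and 8 below 0, none without overlap, with a median of -0.05 that ran from -0.27 (without mafbb replicate 3) to 0.25 (without mafbb replicate 1).

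Cytoplasmic ribosomal protein genes had 10 above and 71 below 0 among 81 of 83 IDs (median -0.40). This split moved with 2 tubes: without mafba replicate 2 and mafbb replicate 3 it was 34 above and 47 below, with a median of -0.09, and the list took 4.32, 3.16 and 4.84% of gene counts in mafba tubes and 4.78, 5.16 and 7.55% in mafbb tubes. rps3, of the small subunit, stood at 387, 279 and 188 CPM in mafba and 634, 523 and 678 CPM in mafbb (-1.06 ± 0.44). RPL5, of the large subunit, stood at 146, 156 and 265 CPM in mafba and 347, 319.9 and 577 CPM in mafbb (-1.07 ± 0.49). Neither overlapped, while RPL3, the most abundant member, stood at 0.03 ± 0.39. Of the 81, 15 lay lower without overlap (18.5%, beside 6.63% of all genes) and 0 higher. Translation factors did not share this side, with 28 above and 14 below 0 among 42 of 93 IDs (median 0.15, but 0.42 without mafbb replicate 2, 0.27 without mafba replicate 2 and 0.01 with library size alone). Within the initiation factor eIF3, EIF3M stood at 138, 116 and 255 CPM in mafba and 33, 47.2 and 75.1 CPM in mafbb (1.78 ± 0.67), whereas EIF3K stood at 45.2, 20.9 and 30.9 CPM in mafba and 181, 102 and 142 CPM in mafbb (-2.10 ± 0.73).

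Proteasome genes had 13 above and 25 below 0 among 38 of 60 IDs (median -0.42), but the median turned to 0.03 without mafbb replicate 3, the tube in which the list took the most counts (0.534, 0.54 and 0.471% in mafba tubes, against 0.575, 0.62 and 1.17% in mafbb tubes). POMP, which assembles the proteasome core, stood at 119.6, 158 and 74.1 CPM in mafba and 242, 173 and 399 CPM in mafbb (-1.15 ± 0.56). PSMB2, a core subunit, stood at 96.1, 131 and 147 CPM in mafba and 289.9, 195 and 297 CPM in mafbb (-1.04 ± 0.53), and PSMC1, an ATPase of the regulatory particle, lay the other way at 100.3, 196 and 115 CPM in mafba and 30.8, 55.7 and 80.6 CPM in mafbb (1.35 ± 0.69).

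Inflammatory genes had 2 above and 8 below 0 among 10 of 59 IDs (median -0.34, with -0.08 without mafbb replicate 3, -0.15 without mafba replicate 1 and -0.52 without mafba replicate 3), and none was without overlap. il1b, the gene of the cytokine interleukin-1 beta, was the most abundant cytokine of this list, at 1485, 3137 and 2628 CPM in mafba tubes and 2161, 3829 and 4301 CPM in mafbb tubes (-0.47 ± 0.38). tnfb, a tumour necrosis factor gene, stood at 621, 1850 and 1517 CPM in mafba and 983, 1414 and 2670 CPM in mafbb (-0.28 ± 0.44). MYD88, the adaptor of Toll-like receptors, stood at 64.7, 110.1 and 70.2 CPM in mafba and 106, 98.4 and 553 CPM in mafbb (-1.49 ± 0.70), with mafbb replicate 3 far above the rest. Antigen presentation and interferon genes left 4 members each with 10 or more counts in all 6 tubes. Of these only mhc2d4b was without overlap, at 141, 233 and 205 CPM in mafba and 89.2, 139.5 and 56.4 CPM in mafbb (0.99 ± 0.62). It was 1 of 4 antigen presentation members, beside 108 of all 1764 genes (6.12%). The antigen presentation list as a whole ran the other way, at 0.0723, 0.0753 and 0.0602% of gene counts in mafba tubes. In mafbb tubes it took 0.109, 0.107 and 0.0782%, without overlap (exact permutation p = 0.1, adjusted p = 0.4).

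Cell cycle genes seldom had 10 or more counts in all 6 tubes, as 6 of 90 IDs did. PCNA, the sliding clamp of DNA replication, stood at 61.6, 746 and 669.6 CPM in mafba tubes and 383, 67.7 and 121 CPM in mafbb tubes (1.31 ± 0.84). Among the 57 tested in the fit of 9519 genes, 46 lay above and 10 below 0 (median 1.60, beside 0.47 for all genes), and MCM2 passed. That lean rested on mafba replicate 2, without which the median was 0.0, while without mafbb replicate 1 it was 9.29. Without mafba replicate 2 and mafbb replicate 3 there were 28 above and 22 below 0, with a median of 0.0. MCM3, another helicase subunit, stood at 281, 51.3 and 306 CPM in mafba and 0.0839, 0 and 16.9 CPM in mafbb (adjusted p = 0.285), and MCM5 at 0, 154 and 269.8 CPM in mafba and 1.26, 0.0744 and 0.116 CPM in mafbb (adjusted p = 0.285). RRM2, which makes deoxynucleotides, had counts in mafba replicate 2 alone among the 6 tubes, at 0, 189 and 0 CPM in mafba. The list took 0.304, 1.57 and 0.454% of gene counts in mafba tubes and 0.406, 0.186 and 0.38% in mafbb tubes, with mafba replicate 1 inside the mafbb range, replicate 3 just above it and replicate 2 far above. MCM2 itself was lowest in that tube among the mafba tubes and kept its call without it.

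Actin regulators and lipid genes did not lean to a side. Actin, Arp2/3 and WASP genes had 26 above and 20 below 0 among 46 of 94 IDs (median 0.07, from 0.01 to 0.22 with 1 tube left out, and -0.05 with library size alone). wipf1b, a WASP-interacting protein, stood at 28.2, 21.8 and 59.9 CPM in mafba tubes and 192, 90 and 215 CPM in mafbb tubes (-2.12 ± 0.74), and hcls1, a cortactin homologue of blood cells, at 423, 332 and 219 CPM in mafba and 87.9, 136 and 169 CPM in mafbb (1.37 ± 0.53), so members without overlap pointed both ways. Of the 46, 5 lay higher without overlap (10.9%, beside 6.12% of all genes) and 1 lower (2.17%, beside 6.63%). Cholesterol and lipid genes had 5 above and 4 below 0 among 9 of 78 IDs (median 0.29, from -0.11 without mafba replicate 2 to 0.39 without mafba replicate 1). NPC1, which exports lysosomal cholesterol, stood at 185, 263 and 268 CPM in mafba and 169, 8.85 and 103 CPM in mafbb (1.36 ± 0.82), without overlap, and the lipid droplet gene PLIN2 at 65.5, 87.6 and 71 CPM in mafba and 444, 36.2 and 126 CPM in mafbb (-1.48 ± 0.83), with overlap. Chaperones had 23 above and 10 below 0 among 33 of 62 IDs (median 0.21, from 0.09 without mafba replicate 1 to 0.43 without mafbb replicate 1, and 0.05 with library size alone), with CCT5, a subunit of the cytosolic chaperonin, at 337, 288 and 664 CPM in mafba and 205, 142 and 109 CPM in mafbb (1.49 ± 0.55).

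**Figure D5:**
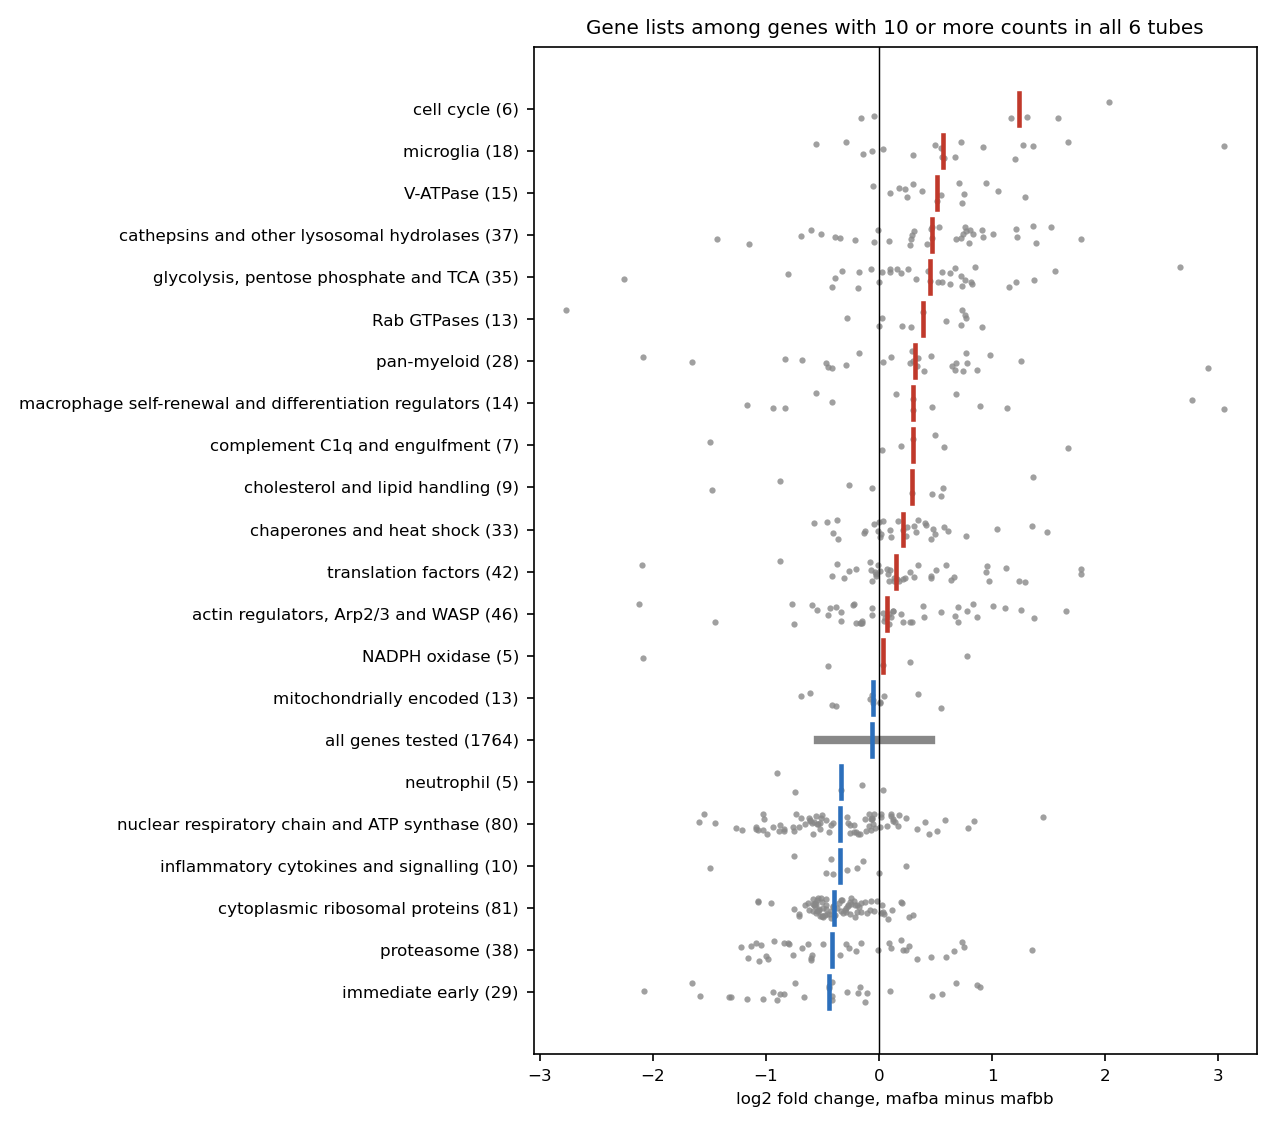
Each grey point is the log2 fold change (horizontal axis, mafba minus mafbb) of 1 gene with 10 or more counts in all 6 tubes, in rows by list with the number of genes in brackets; the bar of a row is its median, red above 0 and blue below. The grey band in the row of all 1764 genes is their interquartile range, with the median at -0.06. The microglia, V-ATPase and lysosomal hydrolase medians lie right of 0 and the immediate early, proteasome and ribosomal protein medians left of it, while with scaling to the spike-ins all of these are above 0.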

How the data were processed

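RNA of 12 tubes of 3 zebrafish microglia was measured by Smart-seq2. The authors deposited 1 table of raw, whole-number counts without normalization. It covers 35117 gene IDs and the ERCC spike-ins, 92 in number, of which 37 were counted. Per the submitters' processing notes, trimming used Trim Galore and alignment used STAR on GRCz11 (danRer11). The sources used here do not give versions, the counting tool, the annotation or strandedness, and reads of overlapping or near-identical genes may be shared. The deposited counts carry no molecular identifiers, so floors cover counting error only. Gene names came from a table that pairs IDs with symbols (27000 matched), many written in human capitals; no coordinates were used.

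The test was edgeR's quasi-likelihood test (version 4.0.16, R 4.3.3; glmQLFit with robust=TRUE, glmQLFTest) and Benjamini-Hochberg adjustment over all genes tested. The first fit took the 9519 genes passing filterByExpr (minimum count 10, minimum total 15) with TMM scaling and 1 term per genotype over all 12 tubes. The second took the 1764 genes with 10 or more counts in each mafba and mafbb tube, with TMM over these genes, in those 6 tubes; its log2 fold changes therefore rest on its own scaling, while every CPM printed uses that of the first. A gene at 0 in a group was set to a floor of 3 counts over the group. The 30 gene lists (879 of 960 entries matched) were described without a test. Library properties were compared by exact permutation over 10 splits. The members and the lists were chosen with earlier results of these data known. Named were mafbb, in each fit all called genes and then the smallest p up to 8 per direction with a gene name, the 12 most abundant genes, and of each list members with the smallest p or the highest level; genes at 0 in 1 group and single genes of detection counts are named for that pattern, after their values were seen. Alternatives were other scalings (DESeq2 size factors, TMMwsp, library size alone, spike-ins), no robust fit (robust=FALSE), a block for the replicate number, DESeq2 1.42.0, limma 3.58.1 voom with sample weights, other filters, each tube left out, and both tubes that stood apart left out. The level of the other mutated gene is not reported here. The scripts were tested on simulated data.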

Additional observations from a re-analysis of the deposited data

How the results depend on the processing

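In the fit of 9519 genes the number called depended on the setting far more than it did among the 1764. Against 4 higher and 0 lower, spike-in scaling called 264 and 0, limma voom with sample weights 231 and 8, robust=FALSE 12 and 0, and TMMwsp scaling 3 and 2. Other alternatives also changed the genes tested: DESeq2 called 1379 and 131 and edgeR with no filter 35 and 5, both of 16088 genes, and the 6 tubes alone gave 0 and 0 of 6268. Without mafba replicate 2 and mafbb replicate 3 the numbers were 15 and 2. With single tubes left out the number called higher ranged from 2 (without mafba replicate 2) to 27 (without mafbb replicate 1) and the number called lower from 0 to 2. DESeq2 size factors and library size alone gave 4 and 3 higher. SEPTIN8 and MCM2 kept their calls in 17 of 18 alternatives and ARPC1A in 11. The cause of these differences was not tested. The replicate numbers did not pair the tubes (same-number deviations correlated at -0.0459, -0.035 and -0.0336), and with the replicate block 20 genes were called higher and 6 lower.

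Among the 1764 genes 0 were called in each direction under every alternative except spike-in scaling, which called 226 higher and 0 lower; the replicate block called 0. Spike-in scaling, which moved the median to 2.32 among the 9519 and 1.78 among the 1764 genes, also reversed RASGEF1B (0.21 in both fits), arl5c (0.37 in both fits), ier2a (0.17) and MFAP4 (0.094), none of them called. The difference in genes detected was 2814, from 1839 to 3581 with a tube left out, 2766 with at least 10 counts and 2758 after thinning, and that in spike-in share was -0.47 percentage points, from -0.571 to -0.392. With 3 cells per tube, a gene at 0 in a tube may have been missed. Differences of low genes were not detectable at this tube-to-tube spread.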
